A study of Mus musculus with 25 samples.

Results

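Expression of 9 genes of the cyclic AMP (cAMP) pathway, Adcy6, Adcy9, Pde4b, Pde4d, Prkaca, Prkar1a, Creb5, Nr4a1 and Nr4a3, was followed in gastrocnemius muscle from 25 male SAMP8 mice, an inbred line that ages early. The genes were selected on their difference between treatments and on their co-variation between mice in these same libraries, and all 9 were found among the 8829 genes of the table. Of the mice, 11 received corn oil (Control) and 14 received thymol in corn oil at 20 mg/kg per day (Thymol), by oral gavage on 5 days a week from 8 months of age, for 12 weeks according to the methods and 3 months according to the labels. Both groups were SAMP8, no mice of another strain or sex were compared, and each library came from 1 mouse.

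RNA was measured by 3′ tag sequencing (QuantSeq), which reads the end of each transcript, so that levels do not scale with transcript length. Values are log2 CPM, the reads of a gene scaled to the size of its library, with a small prior count, and the whole reads behind them could be recovered. Libraries held between 4463818 and 9463418 reads, with a median of 7503259. In this bulk tissue, fewer cells of a type and less RNA per cell cannot be told apart. Fast-fibre markers (8 of 8 in the table) summed to between 109751 and 152956 CPM over the 25 mice. They mark the tissue as skeletal muscle but cannot show which muscle it was. Along the first principal component Control 18 stood farthest out, along the second Thymol 20 and along the third Control 19. Some of the values without them are given with the genes.

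Adrenaline and related hormones act on beta-adrenergic receptors, whose stimulatory G protein switches on adenylyl cyclases, the enzymes that make cAMP. cAMP frees the catalytic subunits of protein kinase A from their regulatory subunits, phosphodiesterases break cAMP down, and factors of the CREB family bind cAMP response elements in DNA and drive early targets such as the Nr4a nuclear receptors. In skeletal muscle this pathway is known for starting glycogen breakdown, and the Nr4a genes are known for their quick response to beta-adrenergic stimulation and to exercise. The 9 genes include no receptor, and the receptor genes Adrb1 and Adrb3 were absent from the table, so the genes are treated as cAMP signalling genes.

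Since the set holds both a CREB family factor and Nr4a targets, the promoter windows of the members, from 250 bases before to 50 bases after each annotated start (RefSeq, GRCm38.p6), were searched on both strands for the cAMP response element TGACGTCA and for its shorter form, TGACG or, on the other strand, CGTCA. The full element contains both short forms and was counted once. Of the 9 members, 8 had windows in the RefSeq table (18 windows in all), Adcy6 being the exception, and 7 of these 8 had a match in at least 1 window. Counted by window, 9 of 18 had a match, and Pde4d had none of these letters in its window. The full element was found for 2 members, Creb5 and Prkar1a, in 3 of 18 windows, while 1.79% of all 32851 promoter windows held it. The windows of a gene can overlap, and 6 of the 18 belong to Prkar1a. Nr4a1 and Nr4a3 each had 4 matches in a single window, a number reached by 0.113% of all windows, whereas at least 1 match was present in 20.8% of them. These 4 windows are printed because they carry the full element or the most matches, with matches in capitals and all letters 5′ to 3′ on the plus strand. They lie at chr15:101266596-101266895 (Nr4a1), chr4:48045055-48045354 (Nr4a3), chr6:53287053-53287352 (Creb5) and chr11:109650699-109650998 (Prkar1a).
Nr4a1: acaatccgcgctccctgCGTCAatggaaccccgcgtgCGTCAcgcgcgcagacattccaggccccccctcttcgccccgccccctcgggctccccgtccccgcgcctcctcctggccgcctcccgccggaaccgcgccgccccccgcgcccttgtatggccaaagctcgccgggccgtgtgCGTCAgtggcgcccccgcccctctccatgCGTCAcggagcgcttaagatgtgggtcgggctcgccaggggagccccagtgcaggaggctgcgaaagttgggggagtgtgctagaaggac
Nr4a3: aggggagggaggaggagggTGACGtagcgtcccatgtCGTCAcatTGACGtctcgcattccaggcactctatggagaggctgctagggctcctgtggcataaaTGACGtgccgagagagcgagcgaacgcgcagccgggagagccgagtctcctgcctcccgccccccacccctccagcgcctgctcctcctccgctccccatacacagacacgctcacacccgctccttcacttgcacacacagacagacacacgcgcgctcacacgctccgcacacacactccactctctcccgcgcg
Creb5: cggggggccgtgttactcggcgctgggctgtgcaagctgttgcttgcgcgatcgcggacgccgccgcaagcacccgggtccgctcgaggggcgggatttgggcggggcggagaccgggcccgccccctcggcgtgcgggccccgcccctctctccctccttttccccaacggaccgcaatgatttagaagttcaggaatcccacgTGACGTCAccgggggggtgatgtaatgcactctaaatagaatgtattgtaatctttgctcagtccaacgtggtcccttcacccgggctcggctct
Prkar1a: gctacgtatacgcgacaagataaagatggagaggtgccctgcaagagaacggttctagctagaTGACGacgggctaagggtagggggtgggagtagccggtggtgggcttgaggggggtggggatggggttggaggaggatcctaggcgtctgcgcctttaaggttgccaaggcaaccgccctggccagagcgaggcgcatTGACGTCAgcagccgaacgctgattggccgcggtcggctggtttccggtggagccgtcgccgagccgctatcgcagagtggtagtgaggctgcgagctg
The matches of Nr4a1 began 233, 213, 69 and 40 bases before the start, and those of Nr4a3 began 231, 213, 205 and 147 bases before it. The full element began 45 bases before the start of Creb5 and 49 bases before that of Prkar1a, which had a second, shorter match 187 bases before it. The same Prkar1a element also lies in an overlapping window, chr11:109650612-109650911, where it began 38 bases after the start. A match describes these letters only, since binding was not measured in these mice.

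The 9 genes differed widely in level. Averaged over the 25 mice, Pde4b was the highest at 7.33 log2 CPM, followed by Prkaca (6.80), Prkar1a (6.72), Pde4d (6.65), Nr4a1 (5.50), Adcy9 (5.24), Creb5 (4.17), Adcy6 (3.70) and Nr4a3 (1.72). Neighbours did not keep this order in every mouse. Within mice, Prkaca exceeded Prkar1a by 0.08 ± 0.21 log2 units (SD, n = 25; higher in 16 of 25), Prkar1a exceeded Pde4d by 0.07 ± 0.36 (14 of 25) and Nr4a1 exceeded Adcy9 by 0.26 ± 0.41 (18 of 25). The order within these 3 neighbouring pairs thus varied from mouse to mouse, whereas Creb5 was below Adcy9 in 25 of 25 mice and Nr4a3 below Adcy6 in 25 of 25. The protein kinase A subunits and a pair of phosphodiesterases were therefore the abundant transcripts of the set, and Adcy6 and Nr4a3 the scarce ones.

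**Figure D1:**
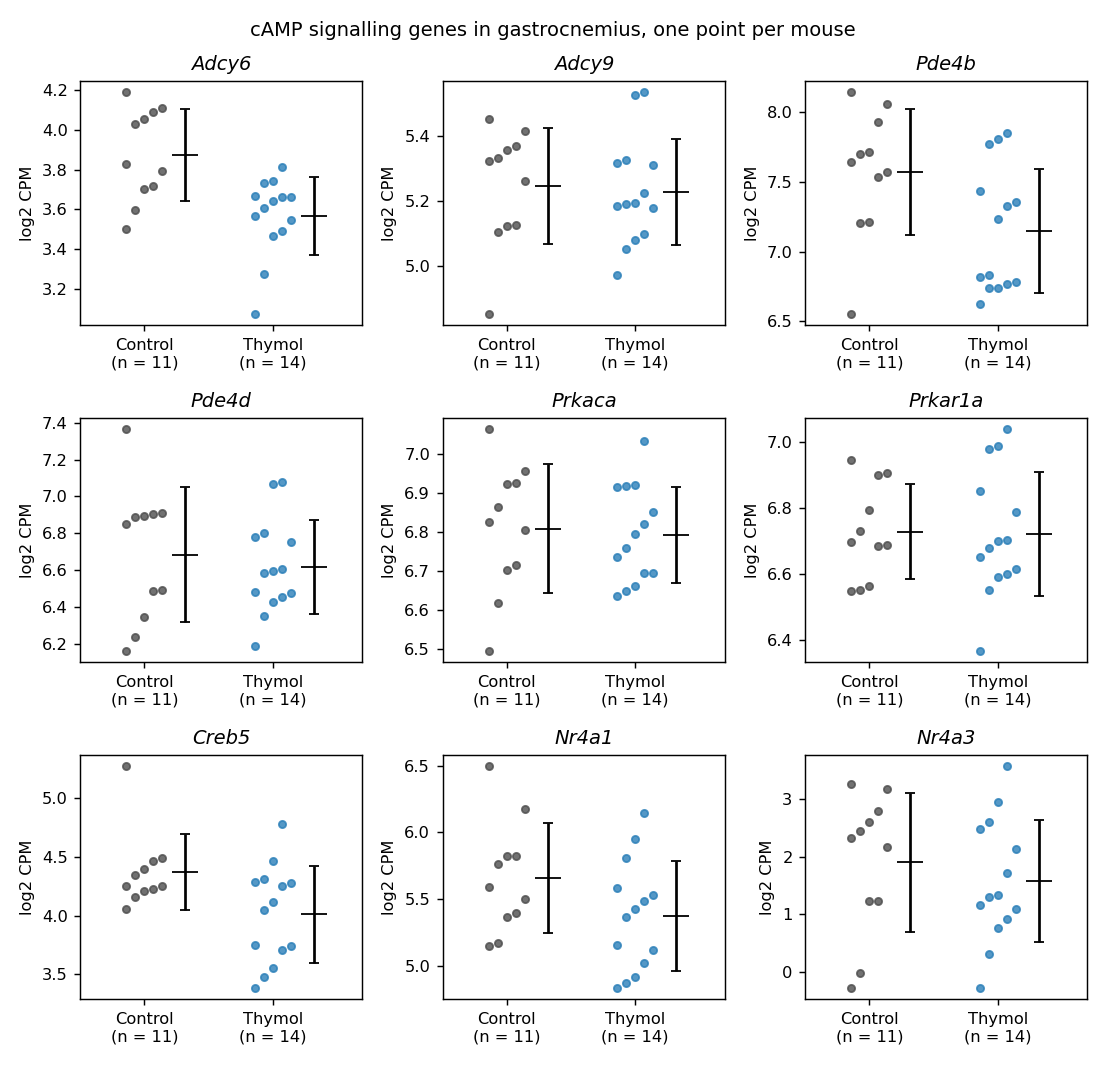
Log2 CPM of the 9 genes in each mouse (vertical axes, scaled per gene), with Control (n = 11) in grey and Thymol (n = 14) in blue, and the mean ± SD beside each group. The groups overlap for all 9 genes, and Nr4a3 spans a far wider range than the others, from -0.28 to 3.57.

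Adcy6 and Adcy9 encode membrane adenylyl cyclases, of which Adcy6 is inhibited by calcium and by the inhibitory G protein. Adcy6 (chr15:98589973-98610076, minus strand) ranged from 3.50 to 4.19 log2 CPM in Control mice, with a median of 3.83, and from 3.08 to 3.81 in Thymol mice, with a median of 3.63. The value was under the Control median in 14 of 14 Thymol mice and under every Control mouse in 4, and 6 Control mice lay above every Thymol mouse, yet the groups overlapped. The difference in means was -0.30 log2 units (SE 0.093), from 3.87 to 3.57, and came from 56 to 157 reads per mouse. Adcy6 is overlapped by the antisense gene Gm29331, and the strand used in counting is not given in the sources used here, so reads of the pair cannot be told apart.

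Adcy9 (chr16:4287529-4420498, minus strand) was the more abundant cyclase, at 4.85 to 5.45 log2 CPM in Control mice (median 5.32) and 4.97 to 5.54 in Thymol mice (median 5.19). Control 19 had its lowest value and Thymol 3 its highest, and the ranges overlapped almost completely. The difference was -0.02 (SE 0.072), and it was -0.06 without Control 19 and 0.0008 without Thymol 20. Adcy9 overlaps Gm6142 on its own strand. Adcy9 exceeded Adcy6 in all 25 mice, 2.90-fold on average, with a log2 ratio of 1.37 ± 0.13 (SD, n = 11) in Control and 1.66 ± 0.22 (n = 14) in Thymol mice.

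Pde4b and Pde4d encode cAMP-specific phosphodiesterases of the type 4 family. Pde4b (chr4:102087543-102607259, plus strand) ranged from 6.55 to 8.15 log2 CPM in Control mice, with a median of 7.64, and from 6.62 to 7.85 in Thymol mice, with a median of 7.04. Control 10 was the lowest of all 25 mice and Control 31 the highest. The Control range therefore enclosed the Thymol range, while 11 of 14 Thymol values were under the Control median and 3 Control values were above every Thymol mouse. The difference in means was -0.42 (SE 0.16), from 7.57 to 7.15, and it was -0.52 without Control 10 and -0.36 without Control 31.

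Pde4d (chr13:108449948-109953461, plus strand) ranged from 6.16 to 7.36 log2 CPM in Control mice (median 6.85) and from 6.19 to 7.08 in Thymol mice (median 6.59). Control 18 was lowest and Control 31 again highest, and 12 of 14 Thymol values were under the median of Control. The difference in means was -0.07 (SE 0.11), and it was 0.0011 without Control 31 and -0.12 without Control 18. Pde4d overlaps Rps3a3 and small RNA genes on its own strand, and their reads could not be separated here. Pde4b exceeded Pde4d in 24 of 25 mice, the exception being Thymol 26, with a log2 ratio of 0.88 ± 0.31 (SD, n = 11) in Control and 0.53 ± 0.43 (n = 14) in Thymol mice.

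Prkaca encodes a catalytic subunit of protein kinase A, and Prkar1a a regulatory subunit that holds it inactive until cAMP binds. Prkaca (chr8:83972993-83996443, plus strand) ranged from 6.49 to 7.06 log2 CPM in Control mice (median 6.82) and from 6.64 to 7.03 in Thymol mice (median 6.78), with Control 18 lowest and Control 1 highest. Prkar1a (chr11:109649405-109669656, plus strand) ranged from 6.55 to 6.94 in Control mice (median 6.70) and from 6.37 to 7.04 in Thymol mice (median 6.69). The groups overlapped nearly entirely for both subunits. The difference was -0.02 (SE 0.060) for Prkaca and -0.01 (SE 0.069) for Prkar1a, each far smaller than its SD between mice. Without Control 18 the difference of Prkaca was -0.05, and without Control 19 that of Prkar1a was 0.01.

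Creb5 encodes a CREB family factor that binds cAMP response elements. Creb5 (chr6:53287270-53700376, plus strand) ranged from 4.06 to 5.27 log2 CPM in Control mice (median 4.25) and from 3.38 to 4.78 in Thymol mice (median 4.08). Control 18 was the highest of all mice and was 1 outlying value above an otherwise narrow Control group, while 7 of 14 Thymol mice lay below every Control mouse and the other Thymol mice overlapped it. The difference in means was -0.36 (SE 0.14), from 4.38 to 4.01, and it was -0.27 without Control 18. Creb5 overlaps Gm25818 and Gm44080 on its own strand. Control 18 also had the highest fibroblast and leukocyte marker sums, given below, and their part in this difference was not tested.

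Nr4a1 (Nur77) and Nr4a3 (NOR1) encode orphan nuclear receptors that are induced within a short time by cAMP. Nr4a1 (chr15:101254269-101274795, plus strand) ranged from 5.15 to 6.49 log2 CPM in Control mice (median 5.59) and from 4.83 to 6.15 in Thymol mice (median 5.40). Control 14 was highest, 5 Thymol mice lay below every Control mouse and 2 Control mice lay above every Thymol mouse. The difference in means was -0.29 (SE 0.15), from 5.66 to 5.37, and it was -0.20 without Control 14.

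Nr4a3 (chr4:48045153-48086447, plus strand) was read from only 4 to 86 reads per mouse, with a median of 22. It ranged from -0.28 to 3.26 log2 CPM in Control mice (median 2.33) and from -0.28 to 3.57 in Thymol mice (median 1.32). Control 23 and Thymol 22 were the lowest, Thymol 30 was the highest, and the groups covered nearly the same range. The difference in means was -0.33 (SE 0.41), smaller than its own error, and lay between -0.55 without Control 23 and -0.19 without Thymol 22. It was -0.52 without Control 18. Nr4a1 exceeded Nr4a3 in all 25 mice, 13.7-fold on average.

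Across the set, the mean was lower with Thymol for 9 of 9 genes, with a median difference of -0.29, whereas 4454 of all 8829 genes were lower and their median difference was -0.0014. By limma with Benjamini-Hochberg adjustment over all genes, 0 of the 9 genes passed an adjusted p of 0.05, as did 0 of 8829 genes (0%). An unadjusted p under 0.05 was reached by 3 of the 9, Adcy6, Pde4b and Creb5, all lower with Thymol, against 312 genes (3.53%) of the table, of which 150 (1.7%) were lower and 162 (1.83%) higher. On recovered reads, voom gave 0 genes past the adjusted threshold and 270 with an unadjusted p under 0.05. Since the 9 genes were chosen on this contrast, nothing is read from their count or their shared direction. For Adcy9, Pde4d, Prkaca and Prkar1a the sign itself changed when single mice were left out.

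The genes also differed in how much mice of the same treatment varied. Nr4a3 had an SD between mice of 1.13 log2 units within groups, larger than that of 99.5% of all genes, and a 14.5-fold range. Its mean, however, was above that of only 0.057% of genes. With a median of 22 reads, it passed the filter of 30 reads in at least 6 samples only through its higher mice. Its rank in SD is therefore partly set by that filter. Pde4b (SD 0.45, larger than 85.7% of genes), Nr4a1 (0.41, 80.7%) and Creb5 (0.38, 75.0%) also lay above the median SD of 0.275 over all genes, as did Pde4d (0.31, 59.1%). Prkaca (0.14, 7.17%), Adcy9 (0.17, 15.4%), Prkar1a (0.17, 15.6%) and Adcy6 (0.21, 29.8%) lay below it. The phosphodiesterases, the CREB factor and the Nr4a targets were thus the variable members, and the cyclases and kinase subunits the steady ones.

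Read counting adds to this spread, most for genes with few reads. The SD expected from counting was 0.31 for Nr4a3, 0.15 for Adcy6 and 0.13 for Creb5, and 0.087 or less for the other 6 genes. The observed SD exceeded it 10.4 times for Pde4b, 5.70 times for Pde4d and 5.14 times for Nr4a1, but 1.43 times for Adcy6 and 1.96 times for Adcy9. The expected values cover counting error only, since amplified reads without molecular identifiers are not independent molecules. Correlations of the 9 genes with library depth lay between -0.22 and 0.34 (Pearson, n = 25), the highest for Prkar1a.

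**Figure D2:**
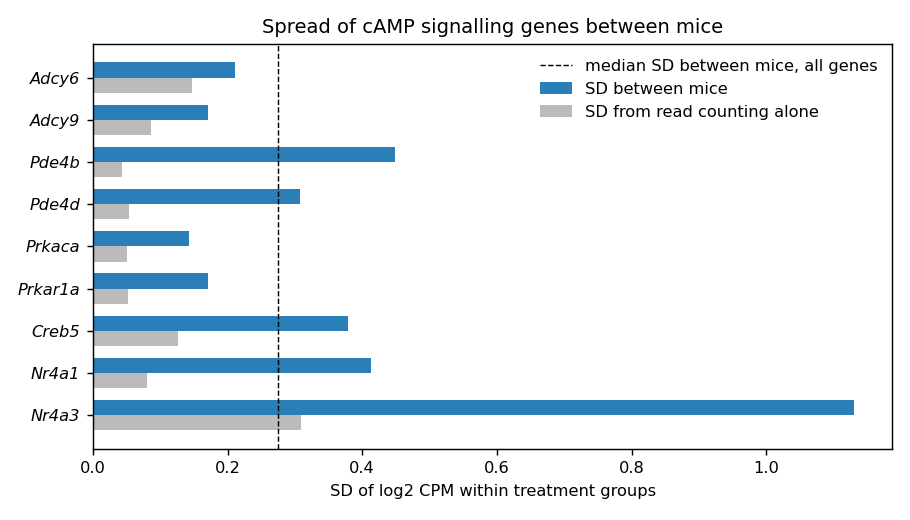
SD of log2 CPM within treatment groups for each gene (blue bars) beside the SD that read counting alone would give (grey bars), with the median SD of all 8829 genes as a dashed line. Pde4b, Pde4d, Creb5, Nr4a1 and Nr4a3 lie above the line at 0.275, and for Adcy6 and Adcy9 the bars are closest in length.

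Co-variation between mice was examined after subtracting the group means, as Pearson's r over 25 mice that share one normalization. Whether the libraries were prepared together is not stated in the sources used here. As the set was chosen by its co-variation, the 36 pairs are described without a test. The cyclases Adcy6 and Adcy9 moved together the most (r = 0.56, rho = 0.56), with r = 0.84 among Control and 0.28 among Thymol mice. Among the 8828 other genes, Adcy9 ranked 23 in likeness to Adcy6 and Adcy6 ranked 36 in likeness to Adcy9, and r of the pair was 0.45 without Control 19. The phosphodiesterases Pde4b and Pde4d followed (r = 0.54, rho = 0.49), with 0.73 in Control and 0.35 in Thymol mice, and Pde4d ranked 41 in likeness to Pde4b and Pde4b 107 in likeness to Pde4d. Control 31 had the highest value of both phosphodiesterases, and r was 0.49 without it.

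All other pairs had lower r, among them the kinase subunits Prkaca and Prkar1a (r = 0.08). The highest were Prkaca with Nr4a1 (r = 0.44, rho = 0.47) and Pde4b with Nr4a3 (r = 0.40, rho = 0.40), which lay within the central 95% of the r values of these genes with all genes, whose upper ends were 0.50 for Prkaca, 0.47 for Nr4a1, 0.43 for Pde4b and 0.45 for Nr4a3. Nr4a3 showed r = 0.32 with Pde4d. For the Nr4a targets, Nr4a1 and Nr4a3, r was 0.01. The lowest value was that of Prkaca and Creb5 (r = -0.36, rho = -0.27), and this pair rested on Control 18, without which r was -0.15.

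**Figure D3:**
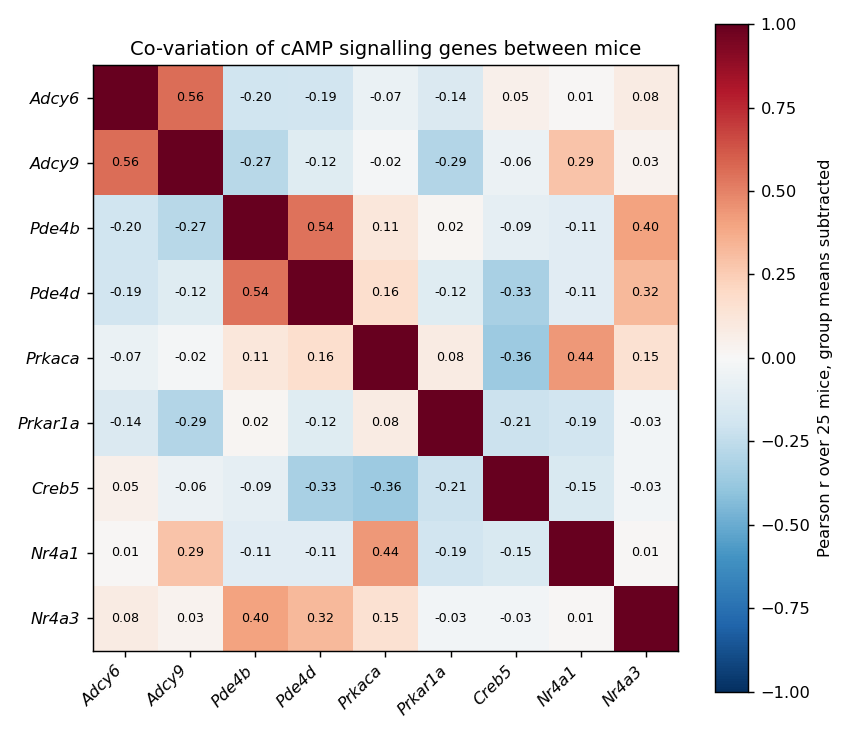
Pearson's r between the 9 genes over 25 mice after subtraction of group means (colour scale from -1 to 1, r printed in each cell). The cyclase pair (0.56) and the phosphodiesterase pair (0.54) are the highest, and Prkaca and Creb5 (-0.36) the lowest.

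**Figure D4:**
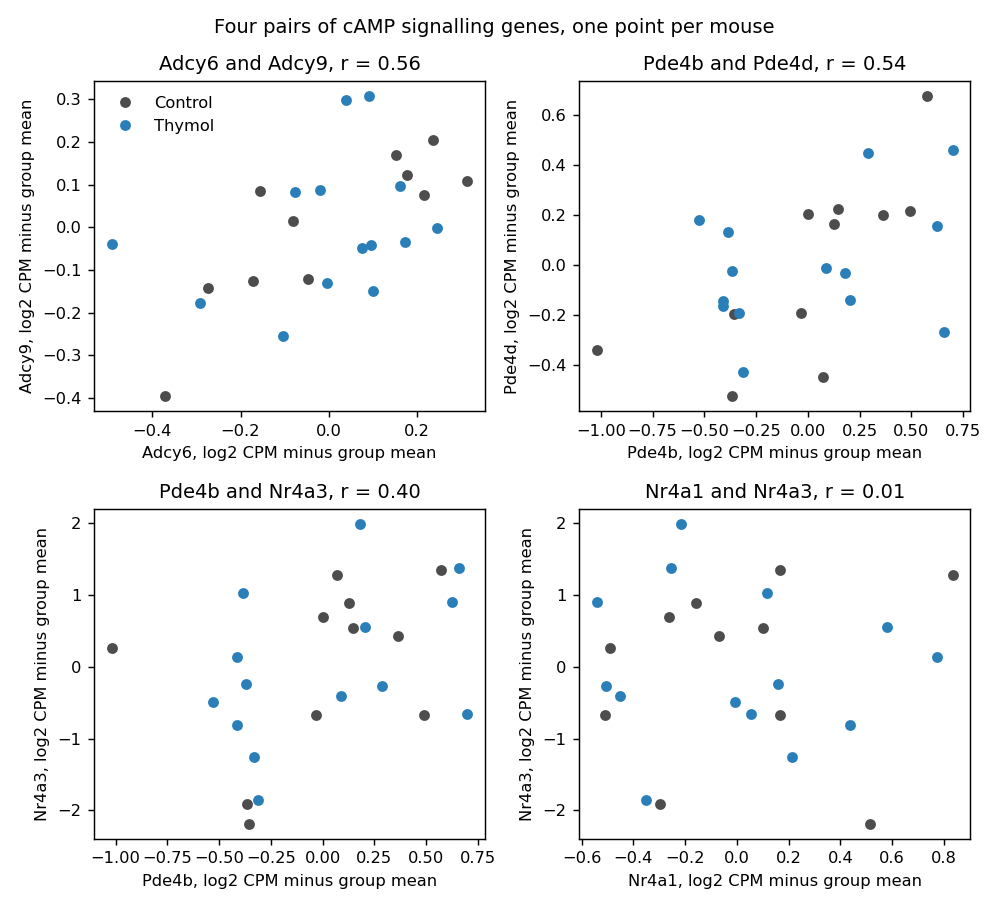
Deviations from the group mean in log2 CPM for each mouse, for the pairs Adcy6 and Adcy9, Pde4b and Pde4d, Pde4b and Nr4a3, and Nr4a1 and Nr4a3, with Control in grey and Thymol in blue. The first pair slopes upward (r = 0.56) and the last shows no slope (r = 0.01).

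No single mouse was high for the whole set. Control 14 was among the 3 highest mice for 4 genes, Adcy6, Creb5, Nr4a1 and Nr4a3, and among the 3 lowest for Pde4d. Control 31 was among the 3 highest for Pde4b, Pde4d and Nr4a3. At the other end, Thymol 20 was among the 3 lowest for Adcy6, Adcy9 and Creb5, and Control 18 for Pde4d, Prkaca and Nr4a3.

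The genes most like each member over the 25 mice were mostly from outside the pathway, as are most genes of the table. Their r values, all below 0.80, are the highest among 8828 other genes, and such a search can yield high values by itself. The lowest r of each member was similar in size, from -0.81 (Prkaca with Myo5a) to -0.66 (Adcy9 with Taf1b). The genes below are therefore listed by rank only, and whether they are partners of the members was not tested. Adcy6 was most like Rgma (r = 0.68), Boc (0.68) and Slx9 (0.66), and Adcy9 most like Gm15179 (0.70), an antisense gene over desmin, Sema6c (0.68) and Ndufc1 (0.67). Pde4b was most like Tmem100 (0.74), Sik1 (0.69) and Bcl6 (0.68), of which Sik1, a salt-inducible kinase that restrains CREB coactivators, belongs to the pathway list. Pde4d was most like Setd7 (0.77), Nktr (0.76) and Ccdc50 (0.75). Prkaca was most like Apba3 (0.78), Lrrc42 (0.73) and the phosphatase subunit gene Ppp1cb (0.73), and Prkar1a most like Pigw (0.70), Rsl24d1 (0.64) and Napepld (0.63). Creb5 was most like Efemp1 (0.76), Sec62 (0.75) and Aebp1 (0.72), where Efemp1 and Aebp1 encode extracellular matrix proteins. Nr4a1 was most like Higd2a (0.75), Trip10 (0.71) and Mgst3 (0.69), and Nr4a3 most like Nfe2l2 (0.72), Akt1 (0.69) and Rcc1 (0.69).

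Since muscle holds several cell types, each of the 9 genes was compared with 9 marker lists (81 pairs, Pearson's r within groups, two-sided permutation test with 100000 resamples). A list was scored by the mean log2 level of its genes, after subtracting group means and dividing each gene by its SD. After Benjamini-Hochberg adjustment 0 of 81 pairs passed 0.05, while 12 had an unadjusted p under 0.05, and by Spearman's rho the counts were 0 and 8. The same share over all genes was not computed, so nothing about the members is read from the 12 or the 8. The lowest unadjusted p was that of Prkaca with leukocyte markers (r = -0.58, permutation p = 0.0035, adjusted p = 0.175; rho = -0.53), and r was -0.46 without the 2 farthest mice. Prkaca also gave r = -0.56 with fibroblast markers (adjusted p = 0.175), and -0.35 without the 2 farthest. For Adcy9 and adipocyte markers r was -0.56 (permutation p = 0.0045, adjusted p = 0.175), and -0.45 without the 2 farthest. For Creb5 and fibroblast markers r was 0.51 (adjusted p = 0.199), but 0.16 without the 2 farthest, whereas for Creb5 and leukocyte markers it was 0.51 and 0.58. For Nr4a1, r was -0.49 with Schwann cell and 0.46 with fast-fibre markers. With immediate-early genes it was 0.39 (permutation test, adjusted p = 0.319; rho = 0.47), at 0.82 in Control and 0.02 in Thymol mice. The count depended on single mice, since 2 pairs passed without Thymol 20 (smallest adjusted p = 0.0202, Creb5 with leukocyte markers) and 1 without Thymol 24 (adjusted p = 0.0405, Adcy9 with adipocyte markers). Without Control 18, the pairs with an unadjusted p under 0.05 fell from 12 to 7. By group, r of Prkaca with leukocyte markers was -0.82 in Control and -0.32 in Thymol mice. For Creb5 with leukocyte markers it was 0.77 and 0.36, but for Nr4a1 with fast-fibre markers 0.17 and 0.63.

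The summed CPM of each list was not the score used in these pairs, and abundant genes weigh most in it. These sums overlapped between the groups, but some differed by as much as the members did. The mean log2 sum differed by -0.33 for Schwann cell markers (medians 138 CPM in Control and 97.6 in Thymol mice), by -0.21 for slow-fibre markers, by -0.21 for immediate-early genes and by -0.14 for fibroblast markers. Leukocyte markers (6 of 9 in the table, without the defining gene Ptprc) summed to 59.2 to 332 CPM in Control and 58.3 to 227 in Thymol mice, and fibroblast markers (7 of 7) to 944 to 3953 and 982 to 2976. Control 18 had the highest sum of both. Adipocyte markers (6 of 8) ranged from 1743 to 5470.3 CPM in Control and from 1476 to 4226 in Thymol mice, with Control 19, the lowest mouse for Adcy9, at the top. Schwann cell markers (4 of 5) ranged from 75.2 to 249.8 and from 68.3 to 173, endothelial markers (8 of 8) from 168 to 259 and from 163 to 219, and smooth muscle markers (4 of 5) from 144 to 400.4 and from 160.4 to 342. Slow-fibre markers (8 of 8) spanned 871 to 7091 CPM in Control and 87.9 to 8847 in Thymol mice. Immediate-early genes (7 of 9, of which 2 are also in the pathway list) ranged from 125 to 271 and from 118 to 188. The part of these cell types in the members' values was not tested beyond the correlations.

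The other genes of the pathway were taken from a list of 93, of which 63 were in the table. Of these, 41 were lower and 22 higher with Thymol, with a median difference of -0.03, and 0 passed the adjusted threshold (limma, adjusted over all 8829 genes). Over all genes, 50.4% were lower. An unadjusted p under 0.05 was reached by 3.53% of all genes in either direction, and by 1.7% with a lower mean with Thymol. Of the 63 genes, 4 reached it, all lower with Thymol. These were Akap12, Gnai3, Gnb2 and Crtc2, none of which passed the adjustment. The count was 2 without Control 27 and 2 without Thymol 21, and voom on recovered reads gave 3.

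Receptors and G proteins were represented by 11 of 17 genes, 7 lower and 4 higher. None of the 11 encodes a receptor, as Adrb1, Adrb3, Adra1a, Adra1b and Adra2a were listed but absent from the table. Gnas, the stimulatory alpha subunit that couples beta-adrenergic receptors to the cyclases, was the most abundant of them at 9.65 log2 CPM. Gnai3, an inhibitory alpha subunit, averaged 2.49 in Control and 2.19 in Thymol mice (difference -0.30, SE 0.13, unadjusted p = 0.0289 by limma, adjusted p = 0.9999). Gnb2, a beta subunit, averaged 5.49 in Control and 5.27 in Thymol mice (difference -0.22, SE 0.098, unadjusted p = 0.0331 by limma) and overlaps other genes on both strands. Among the cyclases, 2 of 8 were tested, and Adcy4 had the smaller p (difference -0.26, SE 0.18, unadjusted p = 0.167 by limma). Among the phosphodiesterases, 4 of 14 were tested, 2 lower and 2 higher, of which Pde3b had the smallest p (difference -0.36, SE 0.33, unadjusted p = 0.291 by limma).

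**Figure D5:**
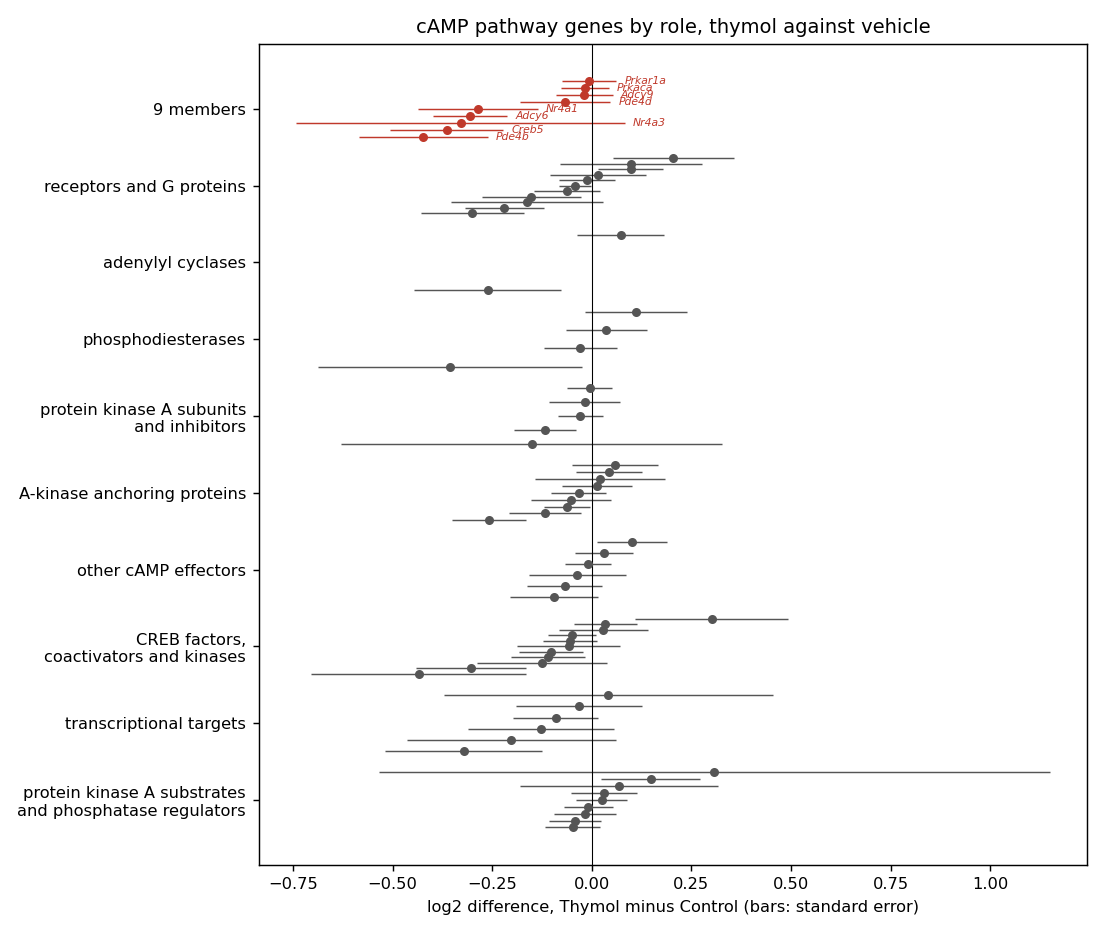
Log2 difference, Thymol minus Control, with its standard error, for the 9 members (red, named) and for the 63 other pathway genes grouped by role (grey). Most genes lie within 0.30 of zero, and none passed the adjusted threshold. The median is -0.29 for the members, which were chosen on this contrast, and -0.03 for the other genes. The lowest of the other genes is Sik1 at -0.43.

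For protein kinase A, 5 of 7 other subunit and inhibitor genes were tested and all 5 were lower, by at most 0.15. The inhibitor Pkia was abundant at 8.82 log2 CPM, above Prkaca, and the regulatory subunit gene Prkar2a stood at 8.58. Prkacb, a second catalytic subunit, had the smallest p (difference -0.12, SE 0.078, unadjusted p = 0.141 by limma). Of the anchoring proteins that place the kinase in the cell, 9 of 10 were tested, 5 lower and 4 higher. Akap12, which binds the kinase near beta-adrenergic receptors, had the smallest p of the whole list, with Control mice at 3.87 to 5.01 log2 CPM (median 4.27) and Thymol mice at 3.77 to 4.32 (median 4.03). Control 31 was the highest mouse for Akap12, as it was for Pde4b and Pde4d. The groups overlapped, and the difference was -0.26 (SE 0.093, unadjusted p = 0.0097 by limma, adjusted p = 0.9999). Other cAMP effectors (6 of 7 tested, 4 lower) included Popdc3, which encodes a cAMP-binding membrane protein (difference 0.10, SE 0.089, unadjusted p = 0.265 by limma).

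All 11 CREB factors, coactivators and kinases were tested, 8 lower and 3 higher. Crtc2, a coactivator that cAMP sends to the nucleus, averaged 2.74 in Control and 2.43 in Thymol mice (difference -0.30, SE 0.14, unadjusted p = 0.036 by limma, adjusted p = 0.9999). Sik1 had the lowest difference of the list at -0.43 (SE 0.27) and did not reach an unadjusted p of 0.05. Of the transcriptional targets, 6 of 8 were tested, 5 lower, with the smallest p for Irs2, an insulin receptor substrate (difference -0.32, SE 0.20, unadjusted p = 0.113 by limma). Kinase substrates and phosphatase regulators (9 of 11 tested, 4 lower and 5 higher) included Pygm, muscle glycogen phosphorylase, at 13.04 log2 CPM, and Phkg1, a subunit of the kinase that activates it (difference 0.15, SE 0.12, unadjusted p = 0.242 by limma). Ppp1r1a, a phosphatase inhibitor switched on by protein kinase A, had the widest spread of the list, from -0.40 to 5.41 in Control and from -0.12 to 5.09 in Thymol mice.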

How the data were processed

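Gastrocnemius RNA (75 ng per mouse) was made into 3′ QuantSeq libraries with 20 PCR cycles. Per the study's methods and processing notes, the authors used STAR (2.5.3) for alignment and HTSeq (0.6.1) for gene counts, kept genes with at least 30 reads in at least 6 samples and normalized with edgeR. The deposited values are log2 CPM, with a prior of 2 reads, and 100% of 220725 values corresponded to whole reads (tolerance 0.02). The strand setting is not given in the sources used here.

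Thymol and Control were compared by limma-trend (R 4.3.3, limma 3.58.1), fitted to all 8829 genes on the log2 scale with Benjamini-Hochberg adjustment, after a check on simulated data. Members and lists were chosen with earlier results of these data known. Named genes were all members, the gene with the smallest unadjusted p in each role, each pathway gene with an unadjusted p under 0.05, the 3 genes most like each member, and genes at the ends of a range, chosen after their values were seen. Alternatives were other normalizations, a filter, covariates, weights, voom on recovered reads and leaving out each mouse. Positions are from the GENCODE annotation of GRCm38.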

Additional observations from a re-analysis of the deposited data

How the results depend on the processing

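No gene of the table and no pathway gene passed the adjusted threshold by limma or voom in any of the 33 alternatives, in which 234 to 348 genes had an unadjusted p under 0.05. The number of pathway genes with an unadjusted p under 0.05 was 4 in the reported fit, 2 when only the top 75% by mean were kept, and between 2 and 5 when single mice were left out. The number of member and marker list pairs that passed was between 0 and 2 when single mice were left out, and 0 with median centring (smallest adjusted p = 0.0575, Prkaca with leukocyte markers). With the first number of the title as a replicate block, 0 genes passed, 296 genes and 4 pathway genes had an unadjusted p under 0.05, and no call changed, although those numbers are not known to mark a shared litter or day. Adcy6, Pde4b, Creb5, Nr4a1 and Nr4a3 stayed lower with Thymol in each alternative in which they were tested (Nr4a3 was removed by the filter). Leaving out 1 mouse turned the sign for Adcy9 in 2 cases, for Pde4d in 1, for Prkaca in 1 and for Prkar1a in 9. The correlation of Prkaca and Creb5 was -0.15 without Control 18, and the cause was not tested. Voom was added after seeing the data and gave -0.48 for Nr4a3. Low read numbers limited Nr4a3, Adcy6 and Creb5 most.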
